A study of Mus musculus with 9 samples.

Results

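The Notch receptor genes *Notch1*, *Notch2*, *Notch3* and *Notch4*, the ligand genes *Jag1*, *Jag2* and *Dll4*, and the target genes *Hey1*, *Hey2* and *Heyl* were followed in mouse hearts at embryonic day 10.5 (E10.5) after deletion of *Ctcf*. They were chosen by name, and all 10 were among the 14011 genes of the deposited RNA-seq table. Each of 9 libraries was made from a pool of 6 whole hearts, with 3 libraries per genotype on a mixed strain background. Homozygotes were Ctcf fl/fl; Nkx2.5-Cre/+ and heterozygotes Ctcf fl/+; Nkx2.5-Cre/+, so both carried the driver, which acts in cardiac progenitors and the cardiomyocytes that descend from them. Controls had no Cre, and their floxed genotype is given as fl/fl in the sample labels, while the study describes the RNA-seq controls as fl/+. A comparison with controls therefore includes any effect of the driver, while the comparison of homozygotes with heterozygotes does not. Because whole hearts were used, the libraries also hold RNA from cells in which this driver is not active, and in such bulk samples fewer cells of a type and less RNA per cell cannot be told apart.

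Notch receptors are membrane proteins that are activated by Jagged or Delta-like ligands on a neighboring cell. Ligand binding leads to cleavage of the receptor, and the released intracellular domain enters the nucleus, binds the DNA-binding factor RBPJ and switches on targets such as the Hes and Hey genes, which encode transcriptional repressors. In the embryonic heart the pathway is best known in the endocardium, the inner endothelial layer, where it takes part in trabeculation and in the formation of the valve cushions. *Hey2* is a marker of the compact ventricular myocardium and *Hey1* of the atrial myocardium.

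The promoter of *Hey2* is shown because it belongs to the gene with the largest change of the 10. The RefSeq sequence table held a window of 250 bases before to 50 bases after the start for 8 of the 10 genes, all but *Hey1* and *Heyl*. On GRCm38, the *Hey2* window lies at chr10:30842734-30843033 on the minus strand and is written 5′ to 3′ in the direction of the gene, with the capitals marking TGGGAA, the core of the RBPJ motif, or its reverse complement TTCCCA.

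Hey2 promoter: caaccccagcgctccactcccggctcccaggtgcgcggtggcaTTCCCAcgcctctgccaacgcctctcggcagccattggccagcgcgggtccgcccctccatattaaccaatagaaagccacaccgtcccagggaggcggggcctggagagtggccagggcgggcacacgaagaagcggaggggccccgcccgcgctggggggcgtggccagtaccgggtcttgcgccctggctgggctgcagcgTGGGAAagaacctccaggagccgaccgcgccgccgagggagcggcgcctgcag

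Counted from the start of the gene, with the first transcribed base as 1 and no position 0, TTCCCA lies at -207 to -202 and TGGGAA at -3 to 3. A search of both strands found TGGGAA in the windows of 1 of the 8 genes, *Hey2*. Of all 32851 promoter windows of this length, 25.6% held it and 3.79% held it at least 2 times. CACGTG, an E-box bound by many basic helix-loop-helix proteins, was in 0 of the 8 windows and in 7.15% of all. These matches describe letters in short windows and say nothing of binding.

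The libraries held from 4294537 to 11629365 reads, and the values below are normalized read counts, scaled by the authors to an adjusted library size, as CPM values are, in which 1 read was worth from 0.0901 to 0.231. Values of single libraries follow the order of the deposited columns, which for controls are the libraries of 8457617, 9654014 and 6698891 reads, for heterozygotes those of 9896345, 7946683 and 4294537 reads, and for homozygotes those of 4437234, 6139084 and 11629365 reads. *Ctcf*, the deleted gene, had a mean of 81.4 ± 2.85 (SD, n = 3) in homozygotes, which was 67.0% of the control mean and 83.7% of the heterozygote mean (limma adjusted p = 0.00968 against heterozygotes). The heterozygote mean, 97.3 ± 3.26, was 80.1% of that of controls, with every heterozygous library lower than every control library. The heart was recognizable from its markers, since all 12 cardiomyocyte markers were read in every library and their summed value was 21830 to 24640 in controls, 24540 to 28260 in heterozygotes and 21300 to 24680 in homozygotes. The sum of 8 erythroid genes did not overlap between homozygotes (61640 to 81580) and controls (35010 to 50290). Nor did that of 7 epicardial markers, at 565 to 636 in homozygotes, 425.7 to 487 in controls and 455.7 to 471.3 in heterozygotes, and 4 of the 7 (*Wt1*, *Tbx18*, *Upk3b* and *Aldh1a1*) rose against both. Short genes had higher values in homozygotes than in controls (median log2 fold change 0.17 in the 1398 with least exonic sequence) and long genes lower ones (-0.16 in the 1398 with most). Against heterozygotes these medians were 0.14 and -0.11. The parts of the erythroid and epicardial RNA and of gene length in the results were not tested, except where a value with the length trend removed is given. Nothing in the sources used here says how the hearts were divided into pools, so the p-values measure the spread between these libraries.

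Of the 10 genes, *Hey2* and *Notch1* were downregulated in homozygotes compared with controls, 2 of 10, where 15.2% of all genes tested changed and 8.03% were lower (limma, adjusted p under 0.05). The other 8 did not pass the test. The log2 fold change was below 0 in 9 of the 10 genes, with a median of -0.26, against 50.1% of all genes and a median of -0.00108. The median of the 10 was -0.16 with the length trend removed and -0.15 without the homozygous library of 11629365 reads. Compared with heterozygotes, 1 of the 10, *Hey2*, was downregulated, where 13.6% of all genes changed and 6.7% were lower. In this comparison too 9 of the 10 genes were below 0, with a median of -0.20 (-0.12 without the homozygous library of 11629365 reads), against 50.8% of all genes. Groups that did not overlap, with the homozygotes lower, were found for *Hey2* and *Notch1* against controls and for *Hey2* and *Jag1* against heterozygotes, 2 of 10 in each, which was so for 16.5% and 15.5% of all genes.

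**Figure D1:**
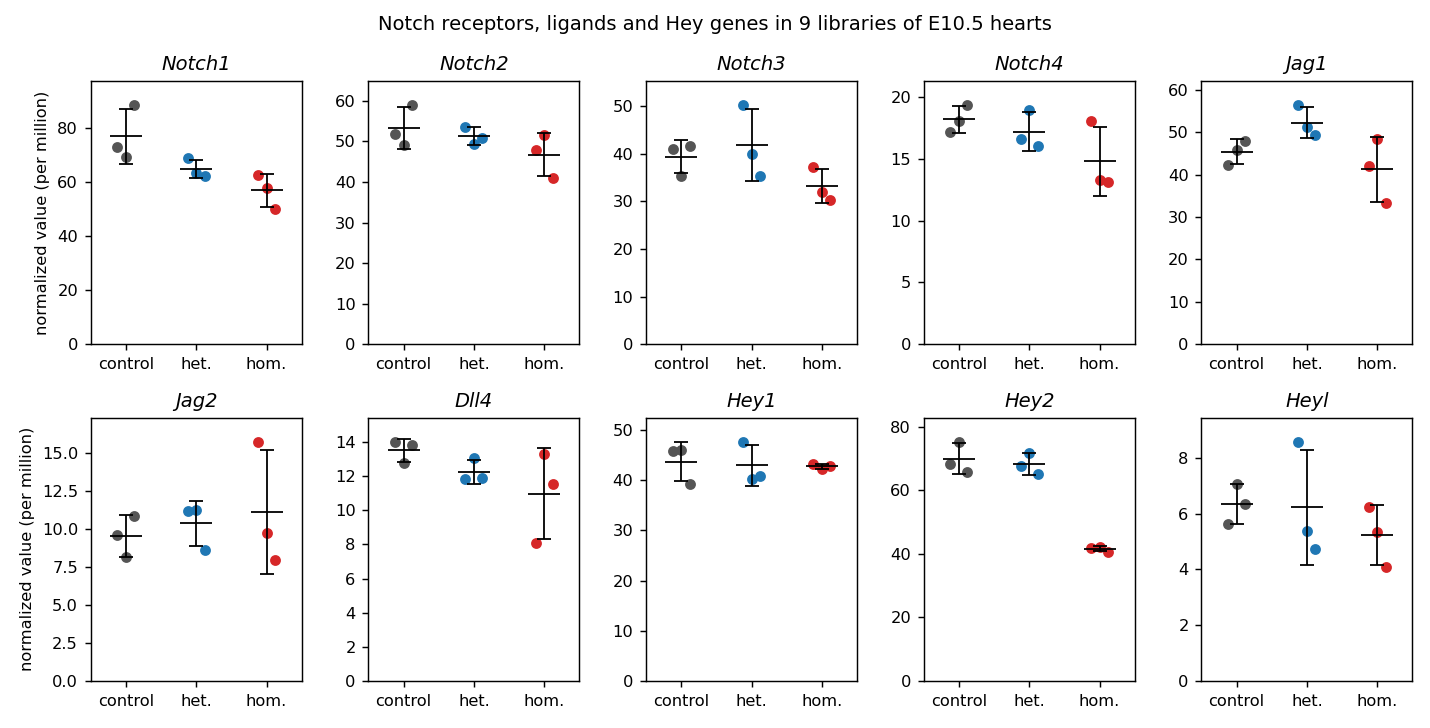
Normalized read count of each of the 10 genes in the 9 libraries, by genotype. Each point is 1 library (a pool of 6 hearts), the long bar is the mean of 3 libraries with its SD, and each vertical axis starts at 0. The homozygote points of *Hey2*, from 40.7 to 42.1, lie below all points of the other genotypes, while those of *Hey1*, from 42.2 to 43.3, lie among them.

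*Hey2* (ENSMUSG00000019789, NCBIM37 chromosome 10 from 30552165 to 30562607, minus strand) encodes the repressor of the compact myocardium named above. Its normalized read count was 68.4, 75.3 and 65.9 in controls, 67.7, 71.8 and 65.2 in heterozygotes and 41.9, 42.1 and 40.7 in homozygotes. All 3 homozygous libraries were lower than every other library, and controls and heterozygotes overlapped. The homozygote mean of 41.5 ± 0.765 (SD, n = 3) was 59.5% of the control mean of 69.8 ± 4.88, or -0.74 ± 0.070 (SE) as log2 fold change (limma adjusted p = 2.2e-05). Against heterozygotes, with a mean of 68.2 ± 3.37, it was 60.9%, or -0.71 ± 0.070 (SE) as log2 fold change (limma adjusted p = 4.8e-05). Both calls were kept in all 18 alternative settings, with log2 fold changes from -0.79 to -0.69 against controls and from -0.74 to -0.67 against heterozygotes. The gene was counted from 184 to 740 reads per library.

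*Hey1* (ENSMUSG00000040289, NCBIM37 chromosome 3 from 8663362 to 8667039, minus strand), the paralog of the atrial myocardium, measured 45.9, 46.0 and 39.3 in controls, 47.7, 40.3 and 40.9 in heterozygotes and 43.3, 42.2 and 42.8 in homozygotes. The homozygous libraries lay within the range of both other genotypes. The log2 fold change of homozygotes was -0.03 against controls (95% interval -0.21 to 0.16, limma adjusted p = 0.871) and -0.0032 against heterozygotes (95% interval -0.19 to 0.18, limma adjusted p = 0.986). *Heyl* (ENSMUSG00000032744, NCBIM37 chromosome 4 from 122910799 to 122927118, plus strand), the third member of the family, was the lowest of the 10, with 20 to 87 reads per library. Its values were 5.65, 7.07 and 6.36 in controls, 8.58, 5.36 and 4.73 in heterozygotes and 6.25, 5.33 and 4.10 in homozygotes, and all 3 genotypes overlapped. At this depth the difference from controls was not resolved (log2 fold change -0.27, 95% interval -0.75 to 0.20, limma adjusted p = 0.452).

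The difference between the paralogs was tested within libraries, on the log2 ratio of *Hey2* to *Hey1*. The ratio was 0.57, 0.70 and 0.74 in controls, 0.50, 0.83 and 0.66 in heterozygotes and -0.05, -0.01 and -0.07 in homozygotes. Every homozygous library was lower than every other library, by a mean of 0.71 on the log2 scale from each of the other genotypes. The two-sided exact permutation test gave p = 0.10 in both comparisons, which is the smallest that 3 libraries against 3 allow. Relative to the mean of the 12 cardiomyocyte markers, a ratio chosen after seeing the data, *Hey2* was at -4.14, -4.16 and -4.36 in controls, -4.22, -4.33 and -4.44 in heterozygotes and -4.74, -4.85 and -4.66 in homozygotes on the log2 scale. The homozygotes were again lower in every library, with p = 0.10 in the exact permutation test against each genotype. Of the cardiomyocyte markers themselves, 1 (*Myl4*) rose and 2 (*Nkx2-5* and *Ryr2*) fell against controls, while against heterozygotes 4 (*Myh6*, *Myh7*, *Ryr2* and *Nkx2-5*) fell and 0 rose, with 10 of the 12 below 0.

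**Figure D2:**
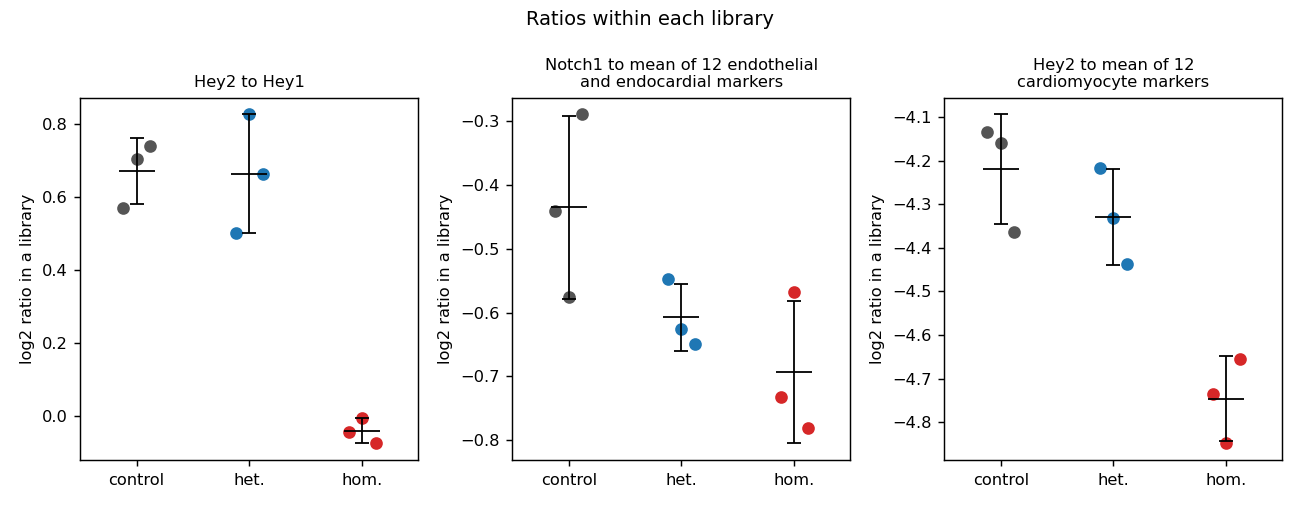
Log2 ratios within each library, by genotype, of *Hey2* to *Hey1*, of *Notch1* to the mean of 12 endothelial and endocardial markers, and of *Hey2* to the mean of 12 cardiomyocyte markers. Each point is 1 library and the long bar is the mean of 3 with its SD, on axes that do not start at 0. The ratio of *Hey2* to *Hey1* is below 0 in homozygotes and from 0.50 to 0.83 in the other genotypes, while the *Notch1* ratio of homozygotes (-0.78 to -0.57) overlaps that of controls.

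*Notch1* (ENSMUSG00000026923, NCBIM37 chromosome 2 from 26313423 to 26372183, minus strand), the main receptor of the endocardium, measured 73.0, 69.2 and 88.5 in controls, 68.8, 63.4 and 62.4 in heterozygotes and 62.6, 58.0 and 50.2 in homozygotes. All homozygous libraries were lower than all control libraries, and homozygotes and heterozygotes overlapped in a narrow range. The homozygote mean was 74.0% of the control mean, 56.9 ± 6.25 against 76.9 ± 10.2 (SD, n = 3), or -0.43 ± 0.10 (SE) as log2 fold change (limma adjusted p = 0.0109). Against heterozygotes the log2 fold change was -0.19 (95% interval -0.40 to 0.02, limma adjusted p = 0.228). The call against controls was lost without the control library of 6698891 reads, which had the highest value (log2 fold change -0.32, limma adjusted p = 0.0549). It was also lost with the length trend removed, where the log2 fold change was -0.20 (limma adjusted p = 0.151), *Notch1* having an exonic length above that of 98.7% of genes.

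The 12 endothelial and endocardial markers were read in every library. Against controls 3 fell (*Flt1*, *Kdr* and *Npr3*) and 1 rose (*Emcn*), and 11 of 12 had a log2 fold change below 0, with a median of -0.17. Their summed value was 1424 to 1564 in controls, 1383 to 1416 in heterozygotes and 1201 to 1439 in homozygotes. Relative to the mean of these markers, *Notch1* was at -0.44, -0.58 and -0.29 in controls, -0.55, -0.63 and -0.65 in heterozygotes and -0.73, -0.57 and -0.78 in homozygotes on the log2 scale. Homozygotes and controls overlapped in this ratio, with a difference of -0.26 (two-sided exact permutation p = 0.20), which was -0.072 with the length trend removed, and so did homozygotes and heterozygotes, with a difference of -0.09 (exact permutation p = 0.30), which turned to 0.016 with the length trend removed.

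The other receptors did not pass the test in any comparison, in limma or in edgeR. *Notch2*, which has a broad expression, measured 51.7, 49.2 and 59.0 in controls, 53.6, 49.3 and 50.9 in heterozygotes and 47.8, 51.5 and 40.9 in homozygotes. *Notch3*, the receptor of mural cells, measured 41.0, 35.4 and 41.7 in controls, 50.3, 40.1 and 35.4 in heterozygotes and 37.1, 32.1 and 30.4 in homozygotes. The homozygous libraries of both genes overlapped the controls, with log2 fold changes of -0.19 (limma adjusted p = 0.193) and -0.25 (limma adjusted p = 0.195). With the length trend removed these were -0.025 and -0.13, and *Notch2* was at -0.097 without the homozygous library of 11629365 reads and at -0.11 without the control library of 6698891 reads. Against heterozygotes *Notch3* was at -0.32, with an unadjusted p of 0.0192 (limma adjusted p = 0.0974). Beside *Notch3*, the summed value of 5 mural markers was 206.9 to 214.3 in controls, 190.2 to 245.7 in heterozygotes and 111 to 165.4 in homozygotes, 2 of the 5 (*Abcc9* and *Cspg4*) falling against controls, and their part in the *Notch3* values was not tested. *Abcc9* had a mean of 102.3 in controls and 71.9 in homozygotes, and *Cspg4* 37.4 and 16.1. *Pdgfrb* (-0.17, limma adjusted p = 0.395), *Rgs5* (-0.30, limma adjusted p = 0.702) and *Kcnj8* (-0.13, limma adjusted p = 0.8005) did not pass against controls. *Notch4*, an endothelial receptor, measured 17.2, 18.1 and 19.4 in controls, 16.6, 19.0 and 16.0 in heterozygotes and 18.1, 13.3 and 13.1 in homozygotes. *Notch4* differed from controls by -0.30 on the log2 scale, at an unadjusted p of 0.0395 (limma adjusted p = 0.145), and by -0.19 with the length trend removed (limma adjusted p = 0.401). Of the 18 alternative settings, it passed the threshold only in that without the homozygous library of 4437234 reads, the highest of its group.

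Of the ligand genes 0 of 3 passed in either comparison of homozygotes, in limma or in edgeR. At an unadjusted p under 0.05 there were 0 against controls and 1, *Jag1*, against heterozygotes, where 4145 and 3874 of all 14011 genes had such a p. *Jag1*, made in the endocardium, myocardium and outflow tract, measured 42.2, 45.9 and 48.0 in controls, 56.4, 51.2 and 49.3 in heterozygotes and 42.1, 48.5 and 33.3 in homozygotes. All heterozygous libraries were higher than all control libraries, and all homozygous libraries were lower than all heterozygous libraries. Neither difference passed the adjusted test: heterozygotes were at 115% of controls (log2 fold change 0.20, 95% interval -0.04 to 0.45, limma adjusted p = 0.750) and homozygotes at 79.0% of heterozygotes (log2 fold change -0.35, limma adjusted p = 0.0585). Against controls the interval of the homozygotes for *Jag1* ran from -0.40 to 0.10.

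*Jag2*, a ligand of the myocardium, was the only gene of the 10 with a log2 fold change above 0 in homozygotes against controls (0.17, 95% interval -0.29 to 0.62, limma adjusted p = 0.654). It measured 9.60, 8.18 and 10.9 in controls, 11.2, 11.3 and 8.65 in heterozygotes and 15.8, 9.73 and 7.97 in homozygotes. The spread of the homozygotes covered all other libraries, and without their library of 4437234 reads the log2 fold change was -0.10. *Dll4*, a ligand of the endocardium and of arteries, measured 14.0, 12.8 and 13.8 in controls, 11.8, 13.1 and 11.9 in heterozygotes and 8.06, 13.3 and 11.6 in homozygotes. The lowest *Dll4* value was in the homozygous library of 4437234 reads, with 35 reads, and the genotypes overlapped (log2 fold change against controls -0.32, 95% interval -0.66 to 0.02, limma adjusted p = 0.202). Without that library the *Dll4* difference was -0.12 (limma adjusted p = 0.596).

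**Figure D3:**
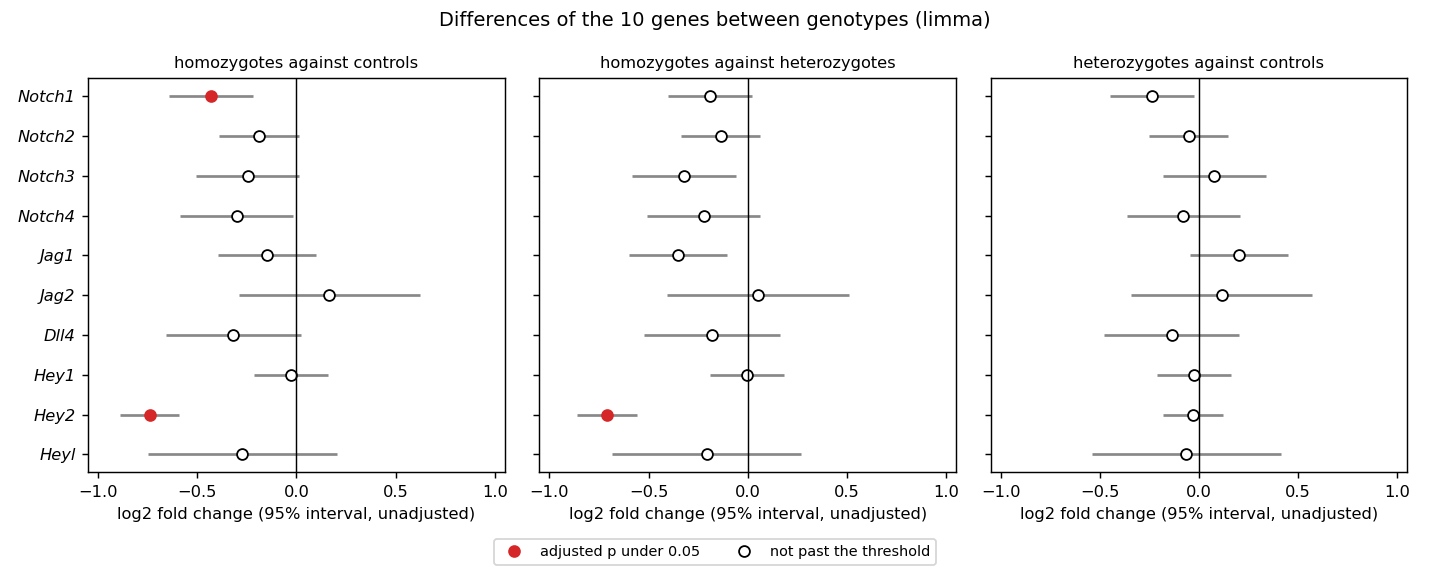
Log2 fold change of each of the 10 genes in the 3 comparisons, from limma, with the unadjusted 95% interval as a line. Filled points passed an adjusted p under 0.05. *Hey2* at -0.74 and *Notch1* at -0.43 passed against controls, *Hey2* at -0.71 against heterozygotes, and 0 genes passed in heterozygotes against controls.

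Between heterozygotes and controls 0 of the 10 genes passed in limma or in edgeR, where 0.143% of all genes did (0.05% lower and 0.0928% higher). *Notch1* was the 1 gene of the 10 with an unadjusted p under 0.05, where 1032 of all 14011 genes had such a p. Its log2 fold change was -0.24 (95% interval -0.45 to -0.03, limma adjusted p = 0.621), with all heterozygous libraries lower than all control libraries. *Hey2* had a log2 fold change of -0.03 in this comparison (limma adjusted p = 0.958). The median of the 10 genes was -0.042, and it lay between -0.073 (without the heterozygous library of 9896345 reads) and 0.0056 (without the control library of 9654014 reads) when single libraries were left out, also turning above 0 without the heterozygous library of 4294537 reads (0.0043) and being -0.0063 without that of 7946683 reads. In all heterozygous libraries 1 gene (*Notch1*) was lower and 1 (*Jag1*) higher than in all controls, against 6.93% and 7.41% of all genes.

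Divided by the length of the longest protein-coding transcript, so that levels can be set side by side between genes, *Hey2* was the highest of the 10 in controls, at 27.4 ± 1.91 (SD, n = 3) per kilobase. *Hey1* followed at 19.9 ± 1.76, and the libraries of these genes did not overlap. *Notch1* (8.11 ± 1.08) and *Jag1* (8.09 ± 0.526) overlapped with each other, and with the length of all exons in place of the transcript their order was reversed, at 5.40 and 7.79. *Notch2* (5.07 ± 0.485) and *Notch3* (4.90 ± 0.430) overlapped with each other, *Dll4* stood alone at 3.61 ± 0.181, *Notch4* (2.76 ± 0.168) and *Jag2* (2.36 ± 0.334) overlapped, and *Heyl* was lowest at 1.40 ± 0.157. The order of *Notch4* and *Jag2* was also reversed with the length of all exons, at 2.26 and 2.36. In homozygotes the order of the highest pair was reversed, with *Hey1* at 19.4 ± 0.235 and *Hey2* at 16.3 ± 0.300 per kilobase and no overlap between their libraries.

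The rest of the pathway was read from a list of 72 genes grouped by role, of which 65 were in the table. *Dll3*, *Aph1c*, *Dtx1*, *Hes2*, *Hes3*, *Hes5* and *Hes7* were not analysed here. In homozygotes against controls 15 of the 65 (23.1%) were downregulated and 0 upregulated in limma, where 8.03% of all genes were lower and 7.19% higher. At an unadjusted p under 0.05 there were 27, where 4145 of all 14011 genes had such a p. In edgeR 16 (24.6%) were called, all lower, where 15.8% of all genes were called and 8.27% were lower. The median log2 fold change was -0.13, and 48 of the 65 were below 0. The 65 include 12 signals that act with Notch in the heart and are no components of the pathway, and without these 11 of 53 (20.8%) fell (10 in edgeR), with a median of -0.13. With the length trend removed 10 were called, of which 7 fell and 3 rose (*Dtx2*, *Tle3* and *Pofut1*). Without the control library of 6698891 reads, 4 were called, *Kat2b*, *Numb*, *Bmp2* and *Erbb2*, and without the homozygous library of 11629365 reads, 7, the same genes with *Ncor1*, *Crebbp* and *Itch*. In these settings the share of all genes called was smaller too, 10.8% with the length trend removed (15.4% of the 65), 7.49% without that control library (6.15% of the 65) and 9.04% without that homozygous library (10.8% of the 65). Calls were also lost without the homozygous library of 4437234 reads (*Mib1*, *Neurl1b*, *Maml3*, *Ep300*, *Itch* and *Has2*), without that of 6139084 reads (*Dll1*, *Crebbp* and *Maml3*), without the control library of 8457617 reads (*Mib1*, *Neurl1b*, *Maml3* and *Ep300*) and without that of 9654014 reads (*Neurl1b*, *Maml3* and *Erbb4*), while *Maml3* also lost its call without each heterozygous library and *Neurl1b* without that of 7946683 reads. Calls were gained without the control library of 8457617 reads (*Ephb4*, lower, and *Lfng*, which rose) and without the homozygous library of 4437234 reads (*Ephb4*, *Furin* and *Snai1*, all lower).

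**Figure D4:**
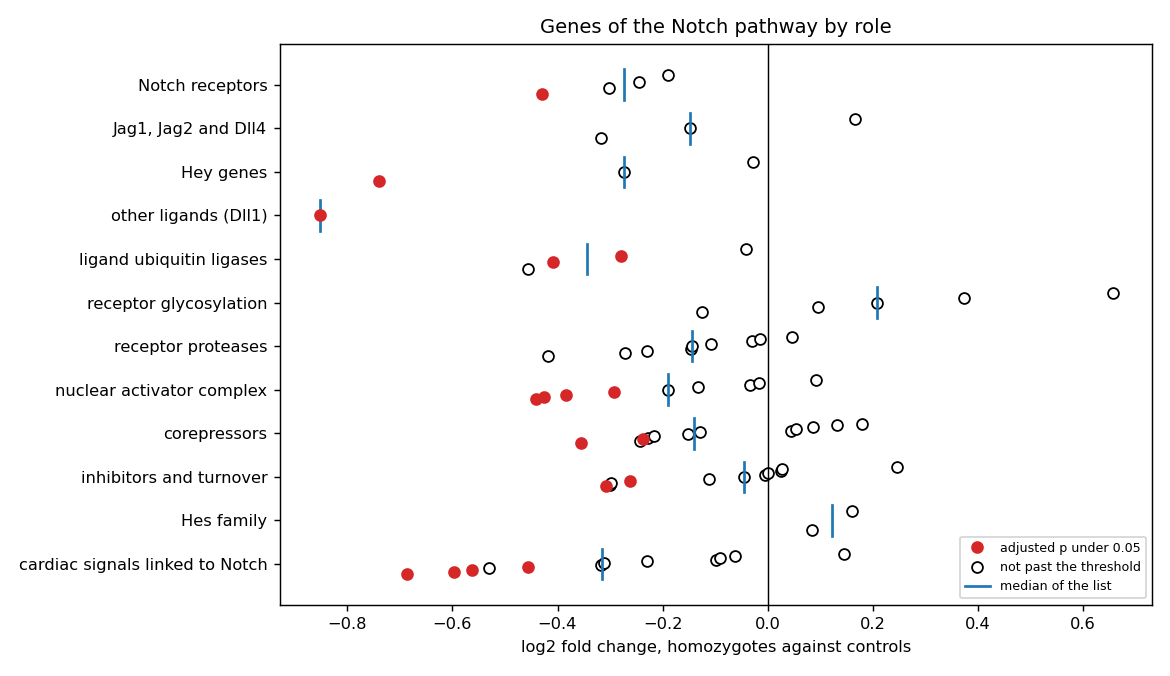
Log2 fold change of homozygotes against controls for the 10 genes and the 65 other genes of the pathway, by role. Each point is 1 gene, filled where limma gave an adjusted p under 0.05, and the bar is the median of the list. All filled points lie below 0, from -0.85 (*Dll1*) to -0.24 (*Ncor1*), and the 5 genes of receptor glycosylation have a median of 0.21 with 0 genes filled.

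*Dll1*, a further Delta-like ligand, measured 8.56, 10.2 and 13.5 in controls, 8.09, 8.26 and 6.57 in heterozygotes and 7.83, 4.99 and 4.55 in homozygotes. All homozygous libraries were below all controls, at 53.8% of their mean, or -0.85 ± 0.21 (SE) on the log2 scale (limma adjusted p = 0.0164). This call was lost in 4 of 18 alternative settings, and *Dll1* had as few as 28 reads in a library. Homozygotes overlapped heterozygotes (-0.40, limma adjusted p = 0.241). All heterozygous libraries were also below all controls, at -0.45 on the log2 scale (limma adjusted p = 0.677). Of the 4 ubiquitin ligases that make ligands active by endocytosis, *Mib1* (-0.28, limma adjusted p = 0.0259) and *Neurl1b* (-0.41, limma adjusted p = 0.0383) fell, while *Neurl1a* was at -0.46 on low values (limma adjusted p = 0.401). *Neurl1b* also fell against heterozygotes (-0.45, limma adjusted p = 0.0283). For *Mib1* the homozygotes overlapped the heterozygotes (-0.06, limma adjusted p = 0.653). Heterozygotes were at 86.2% of controls for *Mib1* (log2 fold change -0.22, limma adjusted p = 0.520). Of the 5 genes of receptor glycosylation, 0 passed against controls in limma or in edgeR, and 2 had an unadjusted p under 0.05, where 4145 of all 14011 genes did. The largest values were those of the fringe genes *Lfng*, at 0.66 (limma adjusted p = 0.0728), and *Mfng*, at 0.37 (limma adjusted p = 0.353). These genes were counted with as few as 17 and 9 reads in a library. *Poglut1*, which adds O-glucose to the receptor, fell against heterozygotes (-0.30, limma adjusted p = 0.0372), a call that was lost in 8 of 18 alternative settings.

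Of the 9 receptor proteases, 0 passed against controls in limma or in edgeR. At an unadjusted p under 0.05 there were 2, *Aph1b* and *Furin*, where 4145 of all 14011 genes had such a p. *Aph1b* and *Psen2*, parts of the gamma-secretase complex that frees the intracellular domain, were at -0.42 (limma adjusted p = 0.0716) and -0.27 (limma adjusted p = 0.178). *Furin*, which processes the receptor on its way to the membrane, fell against heterozygotes (-0.26, limma adjusted p = 0.0484), and this call was lost in 12 of 18 alternative settings.

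In the nuclear activator complex 4 of 9 genes fell against controls, all of them coactivators. The histone acetyltransferases *Kat2b* (-0.44, limma adjusted p = 0.00621), *Crebbp* (-0.43, limma adjusted p = 0.0166) and *Ep300* (-0.29, limma adjusted p = 0.0171) fell, as did the Mastermind-like gene *Maml3* (-0.38, limma adjusted p = 0.0485), whose call was lost in 15 of 18 alternative settings. *Kat2b* also fell against heterozygotes (-0.33, limma adjusted p = 0.0280). *Rbpj* itself measured 74.2, 72.5 and 66.0 in controls and 73.5, 79.8 and 73.5 in homozygotes, which overlapped (log2 fold change 0.09, limma adjusted p = 0.447). Genes of the opposite role also fell. Among the corepressors, *Ncor1* was downregulated (-0.24, limma adjusted p = 0.0123), and *Spen*, which recruits corepressors to RBPJ, was at -0.24 (limma adjusted p = 0.0660). Of 11 inhibitors and turnover genes, *Numb*, which removes Notch from the membrane (-0.31, limma adjusted p = 0.0105), and the ubiquitin ligase *Itch* (-0.26, limma adjusted p = 0.0168) fell, and *Dtx3l* was at -0.30 (limma adjusted p = 0.308). With the length trend removed *Ep300* (-0.11), *Ncor1* (-0.03), *Itch* (-0.12), *Mib1* (-0.12), *Crebbp* (-0.33), *Maml3* (-0.31) and *Neurl1b* (-0.34) were among the calls that were lost, while *Kat2b* and *Numb* were called against controls in all 18 alternative settings (*Kat2b* lost its call against heterozygotes in 5 of 18). Against heterozygotes *Numb* (-0.14, limma adjusted p = 0.227), *Ncor1* (-0.11, limma adjusted p = 0.209) and *Ep300* (-0.17, limma adjusted p = 0.160) did not pass. Nor did *Crebbp*, *Maml3* and *Itch*. All heterozygous libraries were lower than all controls for *Numb* (-0.17, limma adjusted p = 0.617) and *Ncor1* (-0.12, limma adjusted p = 0.654).

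Of the Hes genes in the table, 0 of 2 passed in limma or in edgeR, and 0 had an unadjusted p under 0.05. *Hes1*, a target of Notch in many tissues, measured 19.2, 18.4 and 16.0 in controls, 21.1, 14.8 and 15.8 in heterozygotes and 21.7, 18.2 and 20.04 in homozygotes, whose difference from controls was 0.16 on the log2 scale (limma adjusted p = 0.476). *Hes6* was at 0.08 (limma adjusted p = 0.674).

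Among 12 signals that act with Notch in the heart, 4 fell against controls. *Erbb2*, the receptor that works with *Erbb4* in neuregulin signaling from endocardium to myocardium, measured 99.7, 98.7 and 126.2 in controls, 109.5, 113.8 and 111.5 in heterozygotes and 82.3, 75.1 and 61.8 in homozygotes. The homozygotes were lower in every library, with log2 fold changes of -0.56 against controls (limma adjusted p = 0.00355) and -0.62 against heterozygotes (limma adjusted p = 0.00232), and both calls were kept in all 18 alternative settings. *Erbb4* fell by 0.46 on the log2 scale against controls (limma adjusted p = 0.0304), a call lost in 6 of 18 alternative settings, among them removal of the length trend (-0.26, limma adjusted p = 0.150). For *Erbb4* the homozygotes overlapped the heterozygotes (-0.23, limma adjusted p = 0.265). *Bmp2*, a signal of the atrioventricular canal, measured 38.8, 33.7 and 37.4 in controls, 31.3, 27.3 and 32.4 in heterozygotes and 19.2, 25.5 and 23.4 in homozygotes. The difference of *Bmp2* was -0.69 on the log2 scale from controls (limma adjusted p = 0.00148) and -0.42 from heterozygotes (limma adjusted p = 0.0243). *Has2*, which makes the hyaluronan of the cushions, fell against controls (-0.60, limma adjusted p = 0.0164), and *Snai1*, a factor of the transition to mesenchyme, fell against heterozygotes (-0.73, limma adjusted p = 0.0142) and was at -0.53 against controls (limma adjusted p = 0.0531). *Tbx3*, a factor of the atrioventricular canal, fell against heterozygotes (-0.45, limma adjusted p = 0.0445), a call lost in 11 of 18 alternative settings. Beside these, 3 of 6 cushion mesenchyme markers (*Postn*, *Pdgfra* and *Vcan*) fell against controls, while *Sox9*, *Twist1* and *Prrx1* did not pass. The sum of the 6 was 1267 to 1469 in controls, 1178 to 1262 in heterozygotes and 762.2 to 1021 in homozygotes, a part that was not tested. Most of this sum was *Vcan*, with a mean of 1026 in controls and 652 in homozygotes.

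Against heterozygotes 8 of the 65 genes (12.3%) fell and 0 rose, where 6.7% of all genes were lower and 6.87% higher, and the median was -0.11 (-0.072 with the length trend removed). Without the 12 cardiac signals, which gave 4 of the 8 calls, 4 of 53 (7.55%) fell, a share near that of all genes. Of the 8, *Erbb2* was called whichever library was left out. The others were, beside *Erbb2*, *Kat2b* and *Neurl1b* among 4 genes called without the heterozygous library of 9896345 reads, *Bmp2*, *Poglut1* and *Snai1* among 4 without that of 7946683 reads, and *Tbx3* and *Snai1* among 3 without that of 4294537 reads. They were *Furin* and *Snai1* among 5 without the homozygous library of 4437234 reads, *Bmp2*, *Poglut1*, *Neurl1b* and *Snai1* among 7 without that of 6139084 reads, of which 1 (*Psenen*) rose, and *Kat2b*, *Tbx3* and *Snai1* among 4 without that of 11629365 reads. Without each heterozygous library in this order, 6.15%, 6.15% and 4.62% of the 65 were called, and 9.05%, 8.97% and 8.73% of all genes. Without each homozygous library these shares were 7.69%, 10.8% and 6.15% of the 65, and 12.1%, 10.8% and 7.3% of all genes. Between heterozygotes and controls 0 of the 65 passed in limma or in edgeR, and 6 had an unadjusted p under 0.05, where 1032 of all 14011 genes did.

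The 5 genes whose log2 values followed those of *Hey2* most closely over the 9 libraries, of 9846 others with a mean value of at least 10, were *Inpp4a* (Pearson r = 0.993), *Alg5* (0.992), *Vash2* (0.988), *Cited1* (0.983) and *Mmp15* (0.982). These points share the 3 genotypes and the depth of each library, and the correlations are given as a description. *Vash2* had a mean of 95.8 in controls, 92.7 in heterozygotes and 51.6 in homozygotes, and *Cited1*, a transcriptional coregulator, 138.9, 140.8 and 81.0.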

How the data were processed

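The authors deposited one table of normalized gene values (a signal) for 9 libraries; in each, 100% of values were a whole number of reads plus 0.5 times one factor (tolerance 0.01). The submitters' notes name CASAVA 1.8, cutadapt 1.6.1, RSEM 1.20, Bowtie2 0.12.7 and limma, on NCBIM37, without roles. Every gene reached 1 in 3 or more libraries. Control columns are named Het and heterozygote columns DH, although HET in the sample titles means heterozygotes that carry Cre; this mapping follows the protocols, and the column means equaled the group averages in a table of the study (within 0.01%) for all genes used from it. Genotypes were compared with limma 3.58.1 (R 4.3.3) on log2(value + 0.5), a scale that understates the change of low genes, with all libraries fitted together, a mean-variance trend, and p adjusted over all 14011 genes by Benjamini-Hochberg. On recovered reads, edgeR 4.0.16 called 2212 genes between homozygotes and controls, 1903 between homozygotes and heterozygotes and 21 between heterozygotes and controls, where limma called 2133, 1901 and 20. Scripts were tested on simulated data. Genes were named by a rule: the 10 genes, every pathway gene called, the 2 with the largest change per role, Hes genes in the table, and the 5 nearest *Hey2*; *Tle3*, *Pofut1*, *Dtx2*, *Ephb4* and *Psenen*, and single markers, were picked with their values in view. A result of 1 pathway gene is not reported here. The genes and lists were chosen with earlier results of these data known. Coordinates and lengths are from GENCODE M1 on NCBIM37, promoters from RefSeq (GRCm38.p6).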

Additional observations from a re-analysis of the deposited data

How the results depend on the processing

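The fall of *Hey2* kept its direction and its call in all 18 alternatives in both comparisons of homozygotes. Of the 10 genes, the number called against controls was 1 with limma without the trend and 1 with the length trend removed (*Hey2* in both), and 1 to 3 when single libraries were left out, being 1 without the control library of 6698891 reads and 3 without the homozygous library of 4437234 reads, where *Notch4* was added. Against heterozygotes it was 2 with quantile normalization, which added *Jag1* (adjusted p = 0.0499), and 1 to 2 when single libraries were left out. The addition was *Notch3* without the heterozygous library of 4294537 reads (adjusted p = 0.0450) and *Jag1* without the homozygous library of 6139084 reads (adjusted p = 0.0158). Of the other pathway genes, the number called against controls was 5 with limma without the trend and 4 to 14 when single libraries were left out. Against heterozygotes it was 5 with only the compared groups in the fit, 3 without the trend and 3 to 8 when single libraries were left out. Over all genes, limma without the trend called 1196, 1063 and 10. The log2 ratio of *Notch1* to the endothelial markers differed by -0.072 from controls and 0.016 from heterozygotes with the length trend removed, and the causes of the other moves were not tested. Leaving out single libraries gave differences from -0.33 to -0.19 and from -0.15 to -0.04 in this ratio, and from -0.76 to -0.68 and from -0.79 to -0.62 in that of *Hey2* to *Hey1*.

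Over all genes, the deviations of same-numbered columns from their group means had correlations from -0.0429 to 0.0851. Columns of different numbers were not compared, so these values cannot settle whether the numbers mark a pairing. With the number as a replicate block, 2, 1 and 0 of the 10 genes, 13, 5 and 0 of the other pathway genes and 1756, 1553 and 15 of all genes were called. Of the 10 genes, depth limits *Heyl*, *Dll4* and *Jag2* most, with as few as 20, 35 and 37 reads.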
